A study of Mus musculus with 3 samples.

Results

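Genes of the S100 family and the G-CSF receptor gene were followed across the immune cells of inflamed sciatic nerve. The members are S100a4, S100a6, S100a8, S100a9, S100a10, S100a11 and Csf3r, 7 of the 32285 genes listed, and all 7 were found by name. S100a8 and S100a9 were read as signs of neutrophils or of free RNA. The other members were read across T, NK, B, macrophage, monocyte and dendritic cells gated on marker genes, in each library.

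The mice were neuropathic NOD.AireGW/+ animals, and the cells came from their sciatic nerves. These animals are on the autoimmune-prone NOD background and carry 1 allele of the Aire G228W mutation, a partial loss of function of the gene that drives display of tissue antigens in the thymus. Nerves were taken after perfusion and digested, and CD45+ cells, those with the common leukocyte surface protein, were sorted and run on droplet single-cell RNA-seq. There were 3 libraries and a single group: the first 2 hold a single mouse apiece (libraries 1 and 2), while library 3 mixes 2 animals and does not say which cell is whose. All mice were female and neuropathic, so no comparison with a healthy nerve was possible and every contrast below is between cell classes of the same mice.

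S100 proteins are small proteins that bind calcium through paired EF hands and act both inside the cell and, once released, as alarm signals. S100a8 and S100a9 pair to form calprotectin, which fills the cytosol of neutrophils and is also made by inflammatory monocytes. S100a4 and S100a6 are tied to cell movement and rise in effector and memory lymphocytes, S100a10 pairs with annexin A2 at the plasma membrane, and S100a11 binds annexin A1. Csf3r encodes the receptor for G-CSF, the growth factor of the neutrophil lineage.

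All 6 S100 members lie on chromosome 3 of the mouse genome (build GRCm38, the sequence of mm10, GENCODE annotation), and each is protein coding. S100a4 (chr3:90603771-90606045, plus strand), S100a6 (chr3:90612882-90624181, plus) and S100a8 (chr3:90668978-90670035, plus) lie at lower coordinates than S100a9 (chr3:90692632-90695721, minus). S100a11 (chr3:93520488-93526287, plus) and S100a10 (chr3:93555080-93564643, plus) are neighbours of each other about 2828 and 2862 kb further along. Csf3r is on chromosome 4 (chr4:126024550-126044440, plus). The span of S100a4 is overlapped on the same strand by the gene model Gm42674, and S100a11 has an annotated pseudogene, S100a11-ps. Neither is among the genes listed, so values for S100a4 and S100a11 are uncertain to the extent that reads could also belong to Gm42674 or S100a11-ps.

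RefSeq promoter windows (build GRCm38.p6) were found for 6 of the 7 members, all but S100a10. The 120 bases before the RefSeq start are shown for the pair S100a4 and S100a6, both highest in monocytes and T cells, and for the pair S100a8 and S100a9, which parted in macrophages. Each is given 5′ to 3′ on the gene's own strand. Capitals mark the letters TATAAA or GAGGAA, or their reverse complements.

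S100a4, chr3:90603650-90603769, plus strand: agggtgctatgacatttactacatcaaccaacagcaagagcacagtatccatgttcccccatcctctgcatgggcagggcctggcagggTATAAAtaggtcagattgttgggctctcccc
S100a6, chr3:90612774-90612893, plus strand: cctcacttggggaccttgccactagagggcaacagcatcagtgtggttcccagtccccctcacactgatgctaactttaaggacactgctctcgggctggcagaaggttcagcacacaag
S100a8, chr3:90668951-90669070, plus strand: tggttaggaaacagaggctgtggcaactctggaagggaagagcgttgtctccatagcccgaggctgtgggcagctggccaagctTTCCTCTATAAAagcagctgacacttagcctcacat
S100a9, chr3:90695722-90695841, minus strand: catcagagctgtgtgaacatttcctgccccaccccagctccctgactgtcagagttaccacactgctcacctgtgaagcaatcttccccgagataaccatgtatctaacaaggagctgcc

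TATAAA, on either strand, was in the windows of S100a4 and S100a8 and in 6.34% of all 32851 windows of that length. GAGGAA, or its reverse complement TTCCTC, was in the windows of S100a8 and Csf3r and in 11.6% of all windows. TTGCNNAA was in none of the 6 windows (4.15% of all), and TGANTCA was in that of S100a11 alone (3.41% of all). The gene starts that GENCODE gives for S100a6, S100a8, S100a11 and Csf3r lie inside their windows, upstream of the RefSeq starts. A match is a description of letters, not of a binding site.

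The libraries differed in what they held. After the cell filter, libraries 1, 2 and 3 kept 3848, 8256 and 1533 cells with median depths of 3985.5, 4659 and 1726 unique molecular identifiers (UMIs) per barcode before the filter. T cells were the largest gated class everywhere, with 2336, 3437 and 1079 cells. Macrophages were almost confined to library 2, which had 1863 against 8 and 3. There were 32, 38 and 18 monocytes, 30, 113 and 9 dendritic cells, 43, 60 and 14 NK cells and 339, 249 and 75 B cells. Between 21.5% and 29.4% of cells carried markers of more than 1 class or of none and stayed ungated. The gates carried their defining markers: summed macrophages of library 2 had 8467 CPM of C1qa, a complement gene (CPM is the gene's UMIs scaled to a common total for each sum), while its T, NK, B, monocyte and dendritic cells had 0 to 26.9. C1qa is itself a marker of the macrophage gate, so these levels follow from the gating and are no separate check of it. Schwann, fibroblast and endothelial gates held 0 cells. Pairs of libraries shared 7 to 36 barcodes.

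S100a8 and S100a9, the calprotectin genes, were concentrated in 1 or 2 cells in libraries 1 and 3, and in library 2 S100a9 was so while S100a8 was spread over 381 cells. In library 1 the kept cells held 96 S100a8 and 246 S100a9 UMIs, and 2 cells with 10 or more of them held 93.3% of the total, including all 246 S100a9 UMIs. One of those cells passed the neutrophil gate, which uses neither gene: 45 S100a8 and 189 S100a9 UMIs made up 9.32% of its 2512 UMIs, beside 4 of Cxcr2, the chemokine receptor of mature neutrophils, and 78 of the chemokine gene Cxcl2. The other was ungated, with 28 and 57. Libraries 2 and 3 had 0 gated neutrophils. The limit of 10 UMIs was chosen after the values were seen.

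In library 3 a single barcode held almost everything. Of 1885 S100a8 and 2039 S100a9 UMIs in the library, 3894 (99.2%) were in 1 ungated barcode of 18470 UMIs, with 1868 and 2026. It also carried 914 UMIs of Ngp and 736 of Camp, genes of the secondary granules that neutrophil precursors fill, together with 123 of Lcn2 and 68 of Ltf. Its Csf3r count was 0, and it had UMIs of 4 neutrophil and all 6 T cell markers, which is why the gate refused it. The rest of library 3 held 17 S100a8 and 13 S100a9 UMIs. Of its 1079 T cells, 5 had an S100a8 UMI (0.463%, 95% exact binomial interval 0.151 to 1.08) and 9 an S100a9 UMI (0.834%, 0.382 to 1.58), none both. In T cells of libraries 1 and 2, by contrast, S100a9 was seen in 0 of 2336 and 0 of 3437, which allows shares of up to 0.128% and 0.0873%. Free RNA from the barcode that held 3894 UMIs was not tested as the source.

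Library 2 held S100a8 without S100a9. Its kept cells had 527 S100a8 and 52 S100a9 UMIs, and 51 of the 52 S100a9 UMIs were in 2 ungated cells with 36 and 15, which also carried 25 and 14 of S100a8 and 9 and 4 of the neutrophil gene Retnlg. Outside those 2 cells there were 488 S100a8 UMIs and 1 S100a9 UMI. Most sat in macrophages: 231 of 1863 (12.4%, 10.94 to 13.98) had an S100a8 UMI, 290 UMIs in all and at most 6 in a cell, and 0 of 1863 had an S100a9 UMI, which allows up to 0.161%. At 0 of 290 against it, S100a9 could have made up at most 1.02% of the S100a8 and S100a9 UMIs of these macrophages. In the 5 cells with 10 or more UMIs in the 3 libraries, S100a9 was instead 1.07 to 4.20 times S100a8. Intervals and upper limits here cover counting error only.

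**Figure D1:**
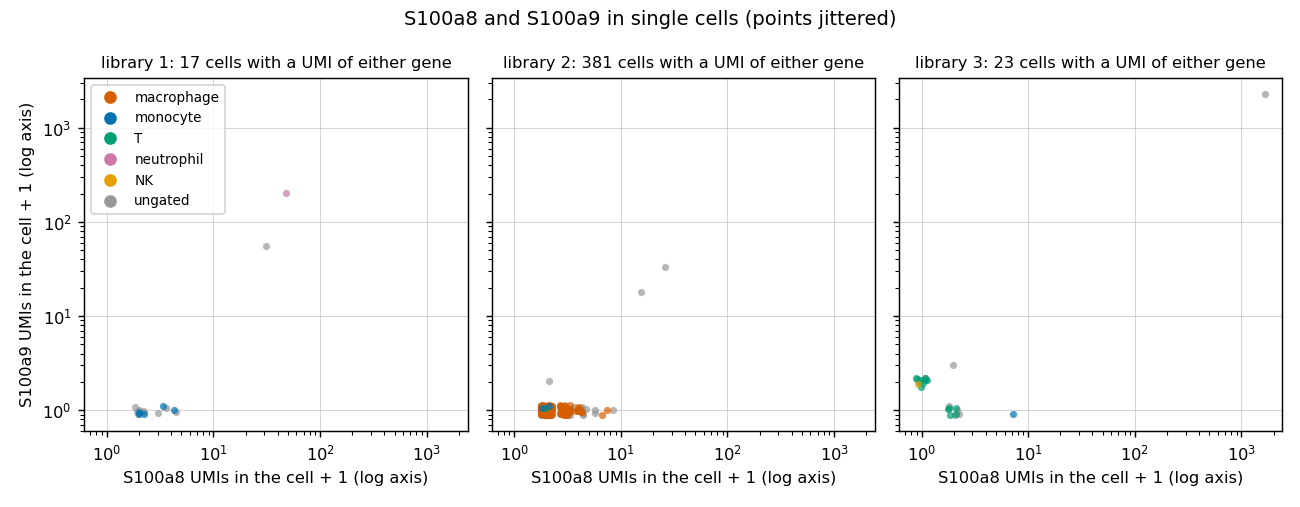
S100a8 (x) against S100a9 (y) UMIs plus 1 in each cell with a UMI of either gene, 1 panel per library, both axes log scaled and points jittered, coloured by gated class. The 5 cells in the upper right of the panels carry both genes, and the 231 macrophages of library 2 lie along the bottom edge with S100a8 and no S100a9.

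Within library 2, S100a8 was also seen in monocytes, at 2 UMIs in 38 cells, and was rare or at 0 in T, B and dendritic cells. Thinned to 1000 UMIs a cell, 38 of 1810 macrophages kept an S100a8 UMI (2.10%, 1.49 to 2.87), against 1 of 3329 T cells (0.0300%) and 0 of 249 B cells, which allows up to 1.205%. Unthinned, 1 of 3437 T cells had an S100a8 UMI (0.0291%), and the summed macrophage level of 21.0 CPM was 276 times that of T cells, with a counting interval of 49.15 to 10940. It was at least 5.72-fold above B cells and 8.28-fold above dendritic cells, both at 0 UMIs, against a floor of 3 counts per library. The macrophage gene C1qa, by comparison, had a UMI in 7.30% of T cells and 8.03% of B cells of library 2, classes that should lack it. Macrophages were deeper than T cells there, with medians of 7309 and 2669 UMIs.

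Monocytes carried traces of S100a8 in all 3 libraries, again without S100a9. Summed levels were 34.3 CPM (8 UMIs in 5 of 32 cells), 12.2 CPM (2 UMIs in 2 of 38) and 130.3 CPM (7 UMIs, all in 1 of 18 cells). S100a9 was at 0 UMIs in the monocytes, macrophages, dendritic cells and B cells of every library. In library 1 the monocyte level was at least 119-fold above T cells and 16.4-fold above B cells, both at 0. The monocyte levels lay on both sides of the 21.0 CPM of library 2 macrophages, and on so few UMIs no test is given.

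Macrophages with and without S100a8 in library 2 differed in other genes, given here as a description of 1 library with no test. The 231 macrophages with it were deeper, at a median of 9716 UMIs against 6977.5 in the 1632 without, and deeper cells have more chance of any UMI. They had more Gpnmb (1257 against 343 CPM), the glycoprotein of lipid-loaded macrophages, more Fabp5 (3833 against 1629), a fatty acid carrier, and more Saa3 (2920 against 1259), an acute-phase protein. Lgals3, encoding galectin 3, was at 1717 against 749 CPM. They had less Il1b (403 against 938 CPM), encoding the inflammatory cytokine IL-1β, and less of the chemokine genes Cxcl13 (3109 against 5678) and Ccl12 (362 against 724). Of the members, S100a4 was lower (17.6 against 59.5 CPM), as was S100a6 (105 against 176), while Csf3r stood at 50.8 against 52.4. The complement genes that define the gate were alike, C1qa at 8724 against 8415.

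Csf3r was found in macrophages and monocytes and was nearly absent from lymphocytes. In library 2, 560 of 1863 macrophages (30.1%, 28.0 to 32.2) had a Csf3r UMI, 720 UMIs or 52.1 CPM in all, and 89 cells had Csf3r and S100a8 together. Monocytes had 60.0 CPM in library 1 (13 of 32 cells) and 36.5 in library 2 (6 of 38), and 0 UMIs in the 18 cells of library 3. The 8 macrophages of library 1 had 3 UMIs. NK, B and dendritic cells were at 0 UMIs in every library, and T cells were at 0.29, 0.38 and 0.87 CPM. Macrophages of library 2 were at least 14.2-fold above its B cells and 20.5-fold above its dendritic cells. The monocyte levels lay on both sides of that of the macrophages, on 14, 6 and 0 UMIs, and no test is given. The 5 cells with 10 or more S100a8 and S100a9 UMIs had 0 to 2 UMIs of Csf3r at depths of 1004 to 18470 UMIs, too few to give a level.

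S100a4 and S100a6 were high in T cells and monocytes and low in B cells, NK cells and the macrophages of library 2. S100a4 in T cells was 785, 1090 and 593 CPM in libraries 1, 2 and 3, and in monocytes 1644, 1346 and 1433. B cells had 46.1, 15.9 and 26.9, and NK cells 83.3, 141.7 and 51.4. Means over libraries ran from monocytes (1474 ± 153, SD, n = 3) and T cells (823 ± 251, n = 3) to NK cells (92.2 ± 45.8, n = 3) and B cells (29.6 ± 15.3, n = 3). Dendritic cells lay between at 270 and 257 CPM in libraries 1 and 2. The 1 macrophage sum of 10 or more cells, 52.5 CPM, fell inside the NK range, so those neighbours were not separated.

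S100a6 was also highest in monocytes and T cells, while its lower classes stood in another order than for S100a4. T cells had 2508, 3362 and 2463 CPM and monocytes 3417, 3617 and 3722. NK cells had 596, 1309 and 540, B cells 215, 181 and 886, and dendritic cells 984 and 672. The macrophages of library 2 had 164. B cells of library 3 stood apart from the other B cells, at 886 CPM against 215 and 181, on 75 cells. NK and B cell values overlapped, and so did NK and dendritic values.

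S100a10, the annexin A2 partner, separated T cells, NK cells and monocytes from the rest. T cells had 1237, 1529 and 1403 CPM, monocytes 1216, 1760 and 1470, and NK cells 800, 1014 and 1105. B cells were at 302, 443 and 544, dendritic cells at 377 and 233, and library 2 macrophages at 127. The T cell and monocyte ranges overlapped, and the NK values all lay below both. S100a11 had another order, led by the dendritic cells at 1056 and 897 CPM and monocytes at 895, 999 and 1024. Its T (270, 373 and 232), NK (379, 399 and 180) and B cell values (266, 274 and 410) overlapped throughout. Macrophages of library 2 had 202 CPM.

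**Figure D2:**
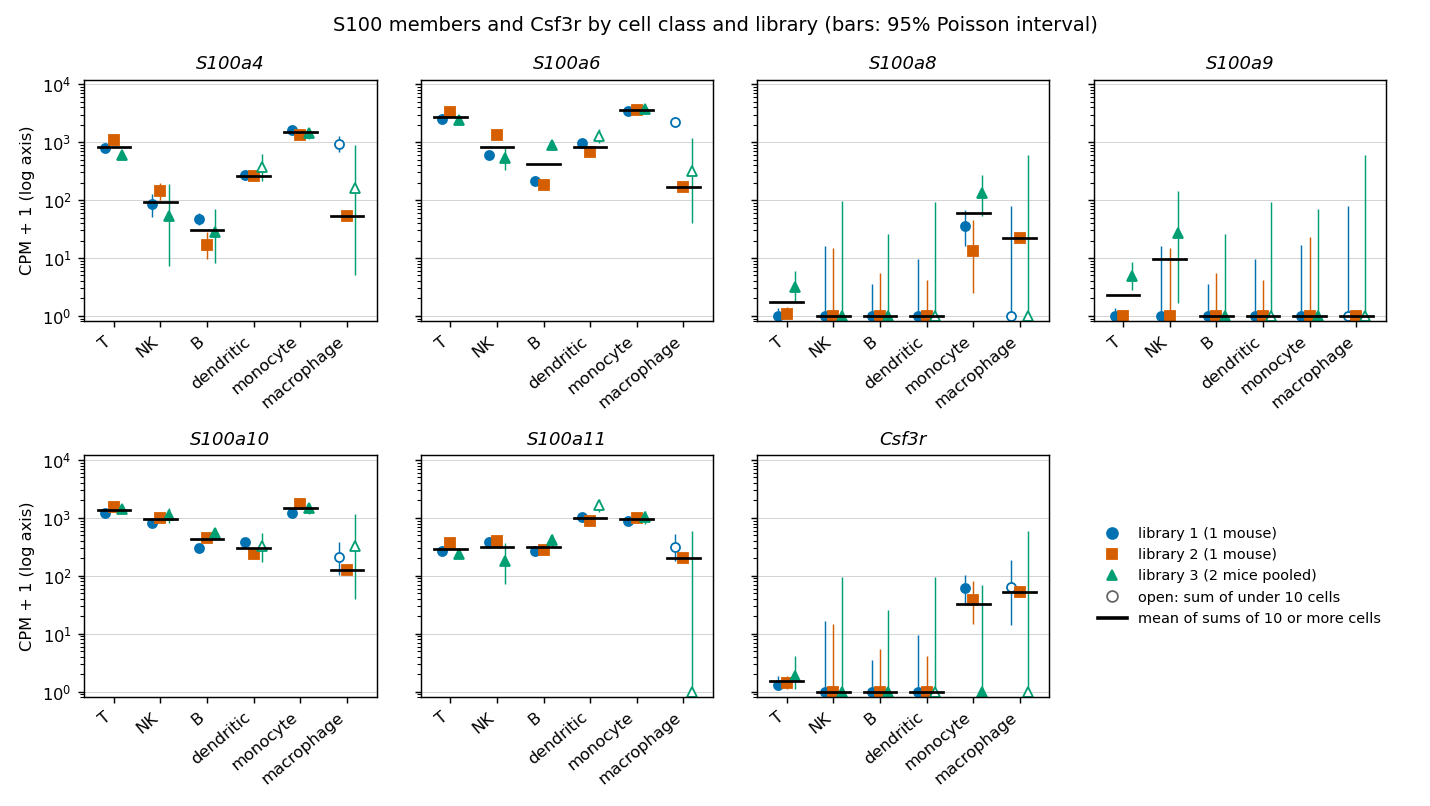
CPM plus 1 (log axis) of the 7 members in 6 gated classes, 1 symbol per library with its 95% Poisson interval, open where a sum holds under 10 cells; black lines are means of the other sums. S100a4 and S100a6 are highest in monocytes and T cells, S100a11 in monocytes and dendritic cells, and S100a9 is at 0 in monocytes, dendritic cells, B cells and macrophages.

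As a gauge of T cell RNA in other classes, the T cell markers were summed in the same way. In library 2 the summed levels of the 6 T cell markers in macrophages were 0.398% of the T cell level, while S100a4 was at 4.82%, S100a6 at 4.88% and S100a10 at 8.33%. In its B cells the markers were at 0.132% and S100a4 at 1.46%. In libraries 1 and 3, B cells held more of the markers, 2.65% and 1.80%, beside 5.88% and 4.53% for S100a4. The gates limit these markers in every class but T.

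Differences between classes were tested on UMIs summed per library and class, with the library as a block, by edgeR's quasi-likelihood test with Benjamini-Hochberg adjustment over all genes tested. In the 6-class fit 6 of the 7 members and 8797 genes passed the filter on low counts, S100a9 being left out. S100a8 and Csf3r passed through myeloid sums alone, so only S100a4, S100a6, S100a10 and S100a11 are counted below.

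Against T cells, B cells were lower in 3 of these 4 members, beside 28% of all genes called (11.9% higher, 16.1% lower). S100a4 fell by 4.69 in log2 units (SE 0.32, adjusted p = 6.185e-17 by edgeR), S100a6 by 2.83 (SE 0.35, 3.503e-09) and S100a10 by 1.65 (SE 0.23, 9.722e-08). For each of the 3, all B cell values lay below all T cell values. S100a11 was not called, with a difference of 0.17 (SE 0.24, adjusted p = 0.6712).

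NK cells were lower than T cells in the same 3 of 4, with 9.21% of all genes called (2.9% higher, 6.31% lower). S100a4 fell by 3.14 (SE 0.31, edgeR adjusted p = 9.582e-11) and S100a6 by 1.81 (SE 0.33, 6.076e-05). S100a10 fell by 0.71 (SE 0.23, adjusted p = 0.04459), a call that was lost under 13 of 15 alternative settings, each library left out among them. S100a11 was at 0.13 (SE 0.26, adjusted p = 0.866).

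Monocytes were higher than macrophages in all 4 members, beside 7.76% of genes called (3.38% higher, 4.39% lower). The log2 differences were 4.48 for S100a4 (SE 0.46, edgeR adjusted p = 5.753e-10), 4.02 for S100a6 (SE 0.57, 1.604e-06), 3.16 for S100a10 (SE 0.39, 7.125e-08) and 1.91 for S100a11 (SE 0.39, 0.0005085). The macrophage side was library 2 alone, and the few macrophages of library 1 did not share its level. Those 8 cells had 944 CPM of S100a4 and 2267 of S100a6, against 52.5 and 164 in library 2. With a gate that took the class with most markers, added after the values were seen, library 1 gave 21 macrophages with 930 CPM of S100a4 and 1919 of S100a6, and library 2 gave 2713 with 123.8 and 461. Monocytes then differed from macrophages by 1.87 for S100a4 (SE 0.49, adjusted p = 0.03109) and by 1.52 for S100a6 (SE 0.45, adjusted p = 0.05838, no longer called), with 4.42% of genes called. S100a10 and S100a11 kept differences of 2.05 (adjusted p = 0.0005425) and 1.603 (adjusted p = 0.005039) under that gate. The S100a11 call was lost under 2 of 14 alternatives, without the library block (adjusted p = 0.07699) and with a gate that allowed no marker of another class (adjusted p = 0.09857).

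Dendritic cells differed from the mean of monocytes and macrophages in 1 of the 4, with 19% of genes called (9.26% higher, 9.73% lower). S100a11 was higher by 1.10 (SE 0.27, edgeR adjusted p = 0.001871), while S100a4 (-0.22), S100a6 (0.18) and S100a10 (-0.49) were not called at adjusted p from 0.2354 to 0.8194. Without the library block S100a11 was not called either (adjusted p = 0.08128). Within the dendritic gate of library 2, S100a4 was at 622 CPM in the 39 cells with markers of mature dendritic cells and at 37.2 in the 40 with markers of the cross-presenting cDC1 subset, and S100a6 at 1192 and 312. S100a11 was at 1067 and 746. Over the whole dendritic gate, S100a11 (1056 and 897 CPM in libraries 1 and 2) overlapped the monocyte values (895, 999 and 1024). Only the single macrophage sum, 202 CPM in library 2, lay below both. Plasmacytoid dendritic cells, the interferon producers, had 4.94 and 7.76 CPM of S100a4 in libraries 1 and 2 on 1 and 2 UMIs, and 582 and 567 of S100a6.

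Averaged over classes, myeloid cells exceeded lymphoid cells in S100a4 and S100a11 and were below them in S100a10, 3 of 4 members, with 41.9% of all genes called (20.9% higher, 21.1% lower). S100a4 was higher by 1.19 (SE 0.19, edgeR adjusted p = 1.209e-06) and S100a11 by 1.10 (SE 0.17, 6.459e-07), and S100a10 fell by 0.82 (SE 0.17, 9.146e-05). S100a6 was at 0.03 (SE 0.23, adjusted p = 0.9765). These means join unlike classes: for all 4 members the values of the 2 sides overlapped.

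**Figure D3:**
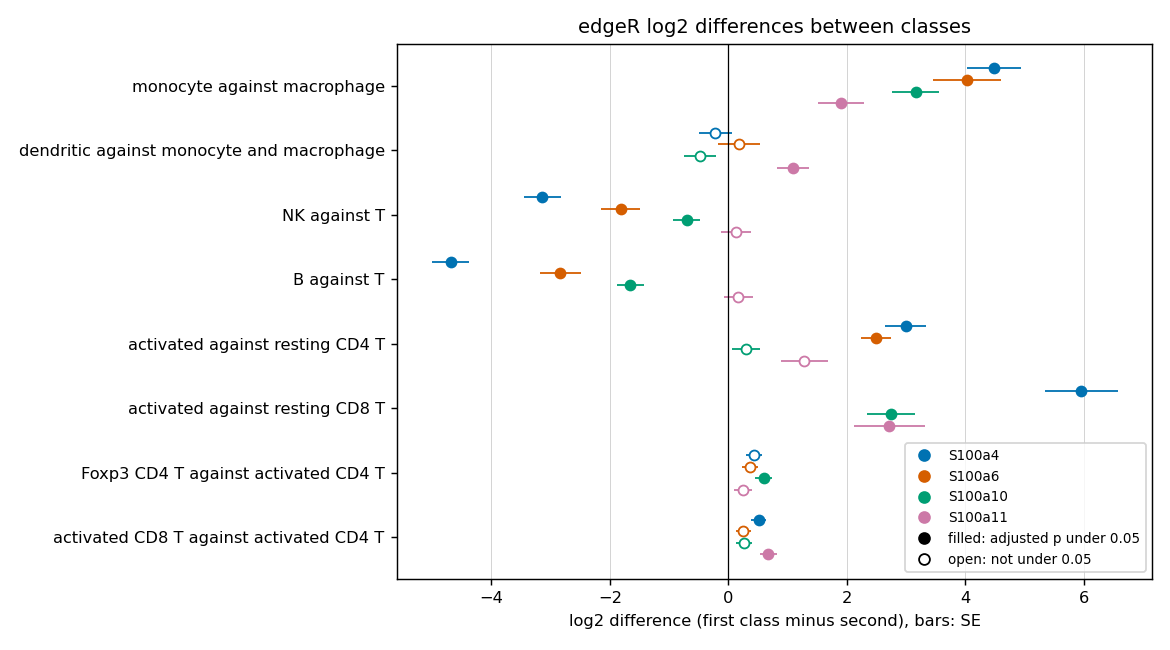
Log2 differences (points) with SE (bars) of 4 members in 8 contrasts between cell classes, first class minus second, filled where edgeR's adjusted p was under 0.05. S100a4 and S100a6 lie furthest from 0 in both lymphocyte contrasts and in monocytes against macrophages; S100a6 in resting CD8 T cells had 0 UMIs and is not drawn.

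Among T cells, S100a4 and S100a6 were high in activated cells and low in the few resting ones. Activated conventional CD4 T cells had 664, 1112 and 762 CPM of S100a4 and activated CD8 T cells 908, 1446 and 872. Foxp3 CD4 T cells, regulatory by their marker, had 1042, 1247 and 1313. S100a6 was at 2203, 3456 and 3466 in activated CD4, 2534, 3647 and 3414 in activated CD8 and 3632, 3790 and 4838 in Foxp3 cells. Resting cells, gated on naive T cell genes that include Lef1, were rare: 9, 34 and 4 CD4 and 3, 10 and 4 CD8 T cells, so only library 2 gave sums of 10 or more. There S100a4 was at 142 CPM (13 UMIs) in resting CD4 and at 1 UMI in resting CD8 T cells, and S100a6 at 624 CPM and 0 UMIs.

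In the T cell fit 4 of the 7 members and 10272 genes passed the filter. Activated CD4 T cells were above resting ones in 2 of the 4, S100a4 by 2.99 (SE 0.34, edgeR adjusted p = 5.19e-07) and S100a6 by 2.49 (SE 0.26, 1.084e-07), where 1.45% of all genes were called (0.935% higher, 0.516% lower). S100a11 (1.28, SE 0.40, adjusted p = 0.1175) and S100a10 (0.29, SE 0.24, adjusted p = 0.6875) were not. S100a10 was at 1161, 1460 and 1099 CPM in activated cells and at 1182 in the resting cells of library 2. The 9 and 4 resting cells of libraries 1 and 3, too few for the test, had 616 CPM (18 UMIs, 95% Poisson interval 365 to 974) and 708 CPM (5 UMIs, 230 to 1653), so the first lay below the activated level of its own library. Both calls were lost without the library block (adjusted p = 0.1231 and 0.1227). With the gate by most markers, which gave 38, 103 and 21 resting CD4 T cells, the differences were 1.84 for S100a4 (SE 0.31, adjusted p = 0.0008014) and 1.06 for S100a6 (SE 0.30, adjusted p = 0.0462), and 3.95% of genes were called.

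Activated CD8 T cells could be compared with only 10 resting cells, those of library 2, which held 1 UMI of S100a4, 0 of S100a6, 10 of S100a10 and 3 of S100a11, so the members called are not counted. Of all genes 2.04% were called (1.87% higher, 0.175% lower), and the median log2 difference of all genes was 3.65. That median depended on the setting, at 0.32 under DESeq2 and 0.08 with the gate by most markers, and the resting sum held 33347 UMIs in all. The 3.65 is therefore no measure of a typical gene. The S100a4 ratio within library 2, 5065 UMIs against 1, was 48.2 with a counting interval of 8.65 to 1905. The ratio of S100a11, against 3 UMIs, was 5.25 (1.79 to 25.5). S100a6 was at least 40.5-fold higher in the activated cells of library 2, against the floor of 3 counts. S100a10 differed by 2.75 (SE 0.40), below the 3.65 of all genes, and was not called without the library block, nor was S100a11. The gate by most markers gave 22, 32 and 12 resting CD8 T cells with 99.0, 43.3 and 73.4 CPM of S100a4 and 535, 411 and 110 of S100a6. The 4 differences were then 3.51 for S100a4 (SE 0.40, adjusted p = 2.963e-06), 2.67 for S100a6 (SE 0.33, 9.894e-06), 1.14 for S100a10 (SE 0.24, 0.004376) and 1.24 for S100a11 (SE 0.34, 0.02637), with 7.03% of genes called.

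The activated states differed less from each other. Foxp3 cells exceeded activated CD4 T cells in S100a10 alone among the 4 members, with 4.3% of genes called (2.14% higher, 2.16% lower): 1789, 1868 and 2502 against 1161, 1460 and 1099 CPM, without overlap, a difference of 0.59 (SE 0.14, edgeR adjusted p = 0.007698). This call was lost under 4 of 15 alternatives, among them thinning (0.39, adjusted p = 0.1553). S100a4 (0.43, adjusted p = 0.06923), S100a6 (0.36, adjusted p = 0.1262) and S100a11 (0.24, adjusted p = 0.5324) were not called. Activated CD8 against activated CD4 T cells, a contrast added after the values were seen, gave S100a11 0.67 (SE 0.14, adjusted p = 0.001007) and S100a4 0.51 (SE 0.13, adjusted p = 0.006205), 2 of 4 members beside 11.7% of genes called (5.62% higher, 6.08% lower). The S100a4 call was lost under 8 of 15 alternatives and the S100a11 call under 4.

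**Figure D4:**
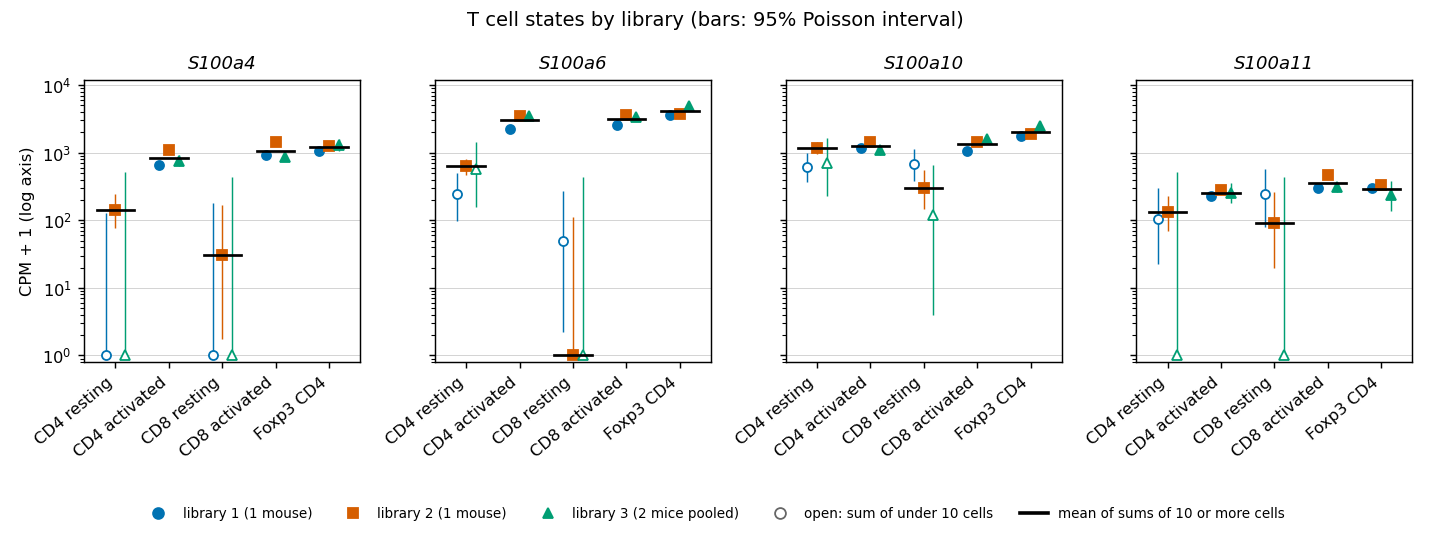
CPM plus 1 (log axis) of 4 members in 5 T cell states, 1 symbol per library with its 95% Poisson interval, open where a sum holds under 10 cells, black lines the means of the other sums. Resting sums of S100a4 and S100a6 lie below those of the activated and Foxp3 states, and S100a10 of resting CD4 T cells lies within the range of activated CD4 T cells in library 2 and below it in the open symbols of libraries 1 and 3.

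In single T cells the 4 members were found together more often than their separate shares would give. Thinned to 1000 UMIs, all 4 were detected in 5.69%, 10.2% and 5.38% of T cells of libraries 1, 2 and 3, against 2.65%, 6.28% and 1.94% were they independent. None of the 4 was detected in 14.1%, 8.71% and 16.2%, against 6.75%, 3.01% and 8.79%. In macrophages of library 2 none was detected in 68.6%, against 65.2%. The excess with all 4 was not particular to T cells. Monocytes had 28.1%, 10.5% and 21.4% against 18.2%, 8.78% and 15.3%, and B cells, dendritic cells and those macrophages also exceeded the independent share. The B, dendritic and macrophage shares rested on few cells: 1 B cell in each library, 2 and 3 dendritic cells in libraries 1 and 2, and 4 macrophages. NK cells of libraries 1 and 3 had 0% against 0.813% and 1.01%, on 39 and 12 cells, too few to show a difference. These shares pool T cells of all states.

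Other S100 genes were mostly silent. Of 11 on the list, 2 passed the filter in the 6-class fit, S100a1 and S100a13, and S100pbp encodes a binding protein rather than a family member. S100a13 had 258, 349 and 313 CPM in T cells and 66.4, 89.3 and 121 in B cells, and fell by 1.73 in log2 units in B cells (SE 0.23, edgeR adjusted p = 3.994e-08). S100a1 was at 138 CPM in library 2 macrophages and at 5.08, 12.6 and 4.33 in T cells. S100b, made by Schwann cells, was at 0 in the 6 classes of libraries 1 and 3 wherever a sum held 10 or more cells, and at most 0.290 CPM in library 2.

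Annexins and other partners moved with the members only in part. Between monocytes and macrophages 3 of 16 tested partners were higher and none lower, beside 3.38% and 4.39% of all genes (list median -0.08, all genes -0.22): Anxa2 by 2.50 (SE 0.41, edgeR adjusted p = 1.754e-05), Anxa1 by 2.39 (SE 0.42, 7.821e-05) and Ahnak, the scaffold that S100a10 and annexin A2 bind, by 2.38 (SE 0.38, 1.084e-05). In B against T cells none was higher and 6 were lower, beside 11.9% and 16.1% of all genes (median -0.61, all genes -0.07), Ahnak by 2.43 (SE 0.27, 1.94e-10). In NK against T cells Anxa1 was higher by 2.84 (SE 0.30, 4.042e-10). It was the 1 of 16 called higher, and 1 was lower, beside 2.9% and 6.31% of all genes, so the lower count was at the background share. Anxa2 CPM in libraries 1, 2 and 3 was 621, 806 and 848 in NK cells and 387, 442 and 373 in T cells. Its difference of 0.72 (SE 0.25) was not called (edgeR adjusted p = 0.06447).

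Most of the alarmin receptor and signalling list was higher in myeloid cells. Of 15 tested receptor and signalling genes 13 were higher and 1 lower than in lymphoid cells, where 20.9% of all genes were higher and 21.1% lower (list median 2.76, all genes -0.13), Cd14 by 6.81 (SE 0.28, edgeR adjusted p = 2.034e-24) and Il1b by 8.51 (SE 0.40, 6.261e-22). Cd14, the co-receptor of Tlr4, was at 2419, 1017 and 651 CPM in monocytes and 967 in macrophages of library 2. Tlr4 itself was at most 12.2 CPM in any of these sums. A list drawn up around G-CSF and granulocyte growth was tested only through 7 genes of other growth factor receptors and myeloid transcription factors, since Csf3, the G-CSF gene, did not pass the filter. All 7 (Csf2ra, Csf2rb, Csf1r, Spi1, Cebpa, Cebpb and Cebpd) were higher in myeloid cells, Csf2rb by 7.39 (SE 0.33, 2.388e-22), Csf2ra by 4.43 (SE 0.24, 4.436e-20) and Spi1, the myeloid transcription factor PU.1, by 6.86 (SE 0.39, 4.85e-19). Which genes of these lists passed the filter through myeloid sums alone, as S100a8 and Csf3r did, was not checked. Such genes could only be called higher in myeloid cells, so the counts of both lists against lymphoid cells are a description. Likewise, genes that passed through monocyte and macrophage sums alone could only be called lower in dendritic cells. Those that passed through dendritic sums alone could only be called higher. The dendritic counts that follow are therefore a description too, with macrophages from library 2 alone. Dendritic cells were lower than monocytes and macrophages in 11 of 15 receptor and signalling genes and higher in 1, Cd36 (4.26, SE 0.52, 1.05e-08), beside 9.73% of all genes lower and 9.26% higher. Cebpb, a factor of granulocyte and monocyte genes, fell by 4.49 (SE 0.31, 1.57e-15).

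Of 12 other calcium-binding and cytoskeletal genes, 3 were higher in activated than in resting CD4 T cells and none was lower, beside 0.935% and 0.516% of all genes (median 0.78, all genes 0.42). Without the library block the genes called in this contrast fell from 149 to 15. The 3 were Lgals1 by 1.84 (SE 0.25, edgeR adjusted p = 1.173e-05), Lgals3 by 2.05 (SE 0.39, 0.001873) and Vim by 0.83 (SE 0.22, 0.04846). In Foxp3 against activated CD4 T cells only Vim was higher, by 0.71 (SE 0.13, 0.000384), beside 2.14% of all genes.

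The genes most like each member over the 15 class sums of 10 or more cells were found by Pearson correlation of log2 CPM among 10919 genes, as a description in which sums share libraries. S100a4 was most like Tiam1 (r = 0.91), Glrx (0.90) and Rac1 (0.90), a GTPase of cell movement that Tiam1 activates, and S100a6 most like Abracl (0.90), S100a4 (0.90) and S100a10 (0.82). S100a11 was nearest to Taldo1 (0.92), Met (0.88) and 9830107B12Rik (0.87), and S100a10 to Gstp1 (0.86), Dok2 (0.83) and Fbxl14 (0.83). Csf3r was nearest to Klra2 (0.98), C3ar1 (0.97) and Adgre1 (0.96), the last of which encodes the macrophage antigen F4/80. S100a8 was nearest to Cstb (0.95), Clec4e (0.95) and Hp (0.95). For S100a9, nearly all of whose sums were at 0, the nearest were 9130230N09Rik, 1700034P13Rik and Vps37a at 0.85 to 0.88.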

How the data were processed

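Per the labels, single-cell 5′ RNA-seq libraries of CD45+ sciatic nerve cells were aligned to mm10. The file headers name Cell Ranger 5.0.1 for library 1 and 6.1.2 for libraries 2 and 3, and the deposited values are raw UMI counts per gene and cell. Library 1 was used with the gene order of the others: over genes, its mean counts had a Spearman correlation of 0.950 with library 2 in that order and 0.362 shifted by 1 gene.

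Following the study's limits, cells under 300 UMIs, over 5000 genes or over 20% mitochondrial UMIs were dropped. A cell was gated to a class with at least 2 of its markers and over 2 times those of any other class; no doublet caller was run. No gate used a member. Not every marker of the resting T cell gate is reported here. UMIs were summed per library and class, sums of 10 or more cells were kept, and CPM is the usual per-million scaling of UMIs within a sum. edgeR 4.0.16 in R 4.3.3 (TMM, filterByExpr, quasi-likelihood F test) was fitted with class and library, and calls were made at an adjusted p under 0.05. Classes of a library come from the same mice, so the library was a block. Poisson and Clopper-Pearson intervals are at 95%. Scripts were tested on simulated data; Python 3.11.15 was used otherwise. The text names the 7 members, up to 6 genes of fixed lists per contrast with the smallest adjusted p, and the 3 genes most like each member; levels of S100a1, S100a13, S100b, Tlr4, Anxa2 and the genes of S100a8 macrophages beyond those were named after their values were seen. Members and lists were chosen with earlier results of these data known. The alternatives were RLE scaling, DESeq2 1.42.0, no filter, each library left out, no block, stricter gates, a 10% mitochondrial limit, sums of 20 cells, thinning and leaving out the deepest 10% of cells. The gate by most markers and sums of 3 cells were added after seeing the data. Libraries were the replicates, 3 from 4 mice. With the library as a block, p-values rest on the spread of class sums left after library differences, shared over the classes of a fit. Monocytes against macrophages and both resting T cell contrasts set 3 sums against 1, and that single sum shows no spread of its own.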

Additional observations from a re-analysis of the deposited data

Results flagged for a closer look

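Ungated cells, which entered no comparison between classes, held S100a8 and S100a9 above the 3 counts that a count of 0 allows in all 3 libraries. The ungated cell richest in both held 85 UMIs of the pair in library 1, 61 in library 2 and 3894 in library 3. The cell of library 2 carried UMIs of all 6 T cell and all 6 macrophage markers at 10300 UMIs, and that of library 3 UMIs of all 6 T cell markers at 18470 UMIs. Whether these barcodes hold more than 1 cell was not tested.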

How the results depend on the processing

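Depth limits these results through small sums: macrophages and resting T cells reached 10 cells in library 2 alone, so leaving out library 2 gave no value for monocytes against macrophages, dendritic against both, myeloid against lymphoid or either resting contrast, and sums of 20 cells gave none for resting CD8 T cells. Of 542 recomputed differences of single members 490 stayed on their side of the threshold, 37 lost a call and 15 gained one. None reversed a call. Differences that were not called could change direction, as S100a11 did in B against T cells (-0.466 to 0.577 over the alternatives). These totals were not limited to S100a4, S100a6, S100a10 and S100a11. S100a8 and Csf3r, which passed the filter through myeloid sums alone, were not left out of them. The 490 is therefore no measure of how stable the members counted above were. The cause of the moves below was not tested.

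All classes of a library share its mice, so the library stood as a block in the model. Without the block, the genes called fell from 149 to 15 for activated against resting CD4 T, from 210 to 18 for activated against resting CD8 T, from 442 to 19 for Foxp3 against activated CD4 T, from 1202 to 226 for activated CD8 against activated CD4 T, from 2464 to 1563 for B against T, from 810 to 461 for NK against T, from 1671 to 954 for dendritic cells and from 683 to 287 for monocytes against macrophages. Of the 4 members, S100a4, S100a6, S100a10 and S100a11, it called 0 in the CD4, Foxp3, CD8 against CD4 and dendritic contrasts and 2 for resting CD8, S100a4 and S100a6, whose resting sum held 1 and 0 UMIs.

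With cells thinned to 1000 UMIs, fewer genes were tested and the same contrasts called 99, 135, 182, 503, 985, 271, 457 and 266 genes, and myeloid against lymphoid 1174 of a former 3688. Allowing no marker of another class gave 116 (Foxp3), 316 (CD8 against CD4), 1217 (B), 182 (NK), 319 (dendritic), 156 (monocyte) and 838 (myeloid). DESeq2 gave 194 (Foxp3), 520 (CD8 against CD4) and 403 (monocyte). No filter gave 228 for resting CD4. The gate by most markers gave 232 (resting CD4), 413 (resting CD8), 267 (Foxp3), 664 (CD8 against CD4) and 349 (monocyte), and sums of 3 cells gave 247 (resting CD4), 254 (Foxp3), 518 (CD8 against CD4), 1491 (B), 502 (NK) and 378 (monocyte); both were chosen after seeing the data. Leaving out each library in turn gave 1324 to 2558 (B), 413 to 578 (NK), 1076 to 1663 (dendritic), 167 to 349 (Foxp3), 414 to 953 (CD8 against CD4) and 2344 to 3661 (myeloid).

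Of the 4 members, Foxp3 against activated CD4 T cells called 1 as reported, beside 442 of 10272 genes. It called 3 under RLE scaling (484 of 10272 genes) or no filter (551 of 16055). It called 2 under DESeq2 (194 of 10272) or without the deepest 10% of cells (469 of 8464). With library 1, 2 or 3 left out it called 1, 2 and 1 (179 of 6286, 167 of 8194 and 349 of 9957). Thinning called 0 (182 of 5709), as did the gate by most markers (267 of 5876) and that with no other marker (116 of 5048). Activated CD8 against activated CD4 T cells called 2 as reported (1202 of 10272 genes). This contrast called 1 under DESeq2 (520 of 10272), thinning (503 of 5709) or without the deepest cells (1069 of 8464). The gate by most markers called 0 (664 of 5876), as did that with no other marker (316 of 5048). With library 1, 2 or 3 left out it called 1, 0 and 2 (414 of 6286, 662 of 8194 and 953 of 9957). Dendritic cells called 1 as reported (1671 of 8797 genes), 3 under the gate by most markers (1858 of 7897) and 1 without library 3 (1663 of 9996). Leaving out library 1 left 1 dendritic sum, so no count is given for it.

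Mean monocyte levels moved beyond 1 SD in 8 cases: S100a4 to 1268 CPM with thinning, S100a6 to 4355 with no other marker, S100a10 to 839.5, 1102 and 1045, and S100a11 to 630, 826 and 707 with no other marker, thinning and the deepest cells left out. With no other marker, libraries 1, 2 and 3 had 2, 6 and 10 monocytes, so only library 3 gave a sum. The values 4355, 839.5 and 630 are thus 1 sum of library 3, set against a mean over libraries. The share of library 2 macrophages with an S100a8 UMI was 2.10% as reported, 3.77% thinned to 2000 UMIs, 12.4% unthinned and 1.42% with no other marker. Cells with 2 or more neutrophil markers held 69.01%, 0% and 99.3% of S100a8 and S100a9 UMIs in libraries 1, 2 and 3, within counting error of those with 3 or more.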
